A study of Mus musculus with 7 samples.

Results

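The transcripts described here come from 9 genes used as markers of classical monocytes, namely Ly6c1, Ly6c2, Hp, Fn1, Ms4a4c, Chil3, Plac8, Vcan and Ifitm6. They were chosen by gene symbol from the 26130 genes of the deposited count table. All 9 were present, and all 9 passed the filter on low counts that left 13665 genes for testing. The RNA came from lung cells of Fth1-mScarlet x Lyz2GFP mice, which carry a red reporter of Fth1, the ferritin heavy chain, and a green reporter of Lyz2, a lysozyme gene active in monocytes, macrophages and neutrophils. Cells positive for GFP, CD11b and Ly6C and negative for Ly6G were sorted and divided by their Fth1 reporter signal. LPS Fth1-high cells (n = 3 libraries) and LPS Fth1-low cells (n = 2) came from mice given 20 µg of E. coli 0111:B4 lipopolysaccharide (LPS, a component of the bacterial outer membrane), instilled into the trachea in a volume of 50 µl 3 days earlier. Untreated Fth1-low cells (n = 2) came from mice of the same reporter cross that had no LPS. The labels give neither age nor sex and do not say whether a library is 1 mouse or a pool, so the p-values cover no more than the spread among these libraries, part of which may be technical.

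Classical monocytes leave the bone marrow through the chemokine receptor CCR2, carry Ly6C on their surface in mice, and enter inflamed tissue, where they can become macrophages or dendritic-like cells. As they do so they generally lose many of the transcripts that define them in blood. The 9 genes cover several roles. Ly6c1 and Ly6c2 encode the Ly6C surface proteins. Ifitm6 and Ms4a4c encode membrane proteins of the interferon-induced transmembrane and MS4A families, and Plac8 encodes a small cysteine-rich protein inside the cell. Chil3 (also called Ym1), Vcan (versican), Fn1 (fibronectin) and Hp (haptoglobin) encode secreted proteins.

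In LPS Fth1-high cells the marker genes moved in different directions. Ifitm6, Vcan, Plac8, Chil3 and Ms4a4c fell relative to LPS Fth1-low cells, by 121-fold for Ifitm6 and 2.19-fold for Ms4a4c at the extremes, while Ly6c1 and Ly6c2 lay higher on average without being called. The falls of Ifitm6, Vcan and Plac8 stayed called whichever single library was left out, and those of Chil3 and Ms4a4c did not. Both Ly6C genes were called higher in LPS Fth1-high than in untreated Fth1-low cells, by 4.32-fold for Ly6c1 and 3.43-fold for Ly6c2. Each of these calls was lost when 1 of the untreated libraries was left out. Vcan alone among the 9 was called in every comparison, being higher in LPS Fth1-low cells and lower in LPS Fth1-high cells than in untreated cells. Fn1 and Hp were called in none.

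Values below are CPM, counts scaled by each library's own total and a TMM factor, and are listed in order of replicate number. Differences are log2 ± SE from edgeR's quasi-likelihood test, and a gene is called where its Benjamini-Hochberg adjusted p over all 13665 genes is below 0.05. Library totals ran from 10459703 to 27997007 counts except for LPS Fth1-low replicate 1, which had 637787. In that library 3 counts stood for 5.02 CPM, against 0.106 to 0.28 CPM elsewhere, and ribosomal RNA genes took 19.5% of the counts, against 0.705% to 8.42%. Pearson's correlation of its log2 CPM with those of the other library of its group was 0.863 across genes, which do not count as independent replicates, against 0.96 to 0.98 for the other replicate pairs. Differences of the 9 markers between the LPS gates are therefore also given without it. Then the other library of that group stands alone and is assumed to vary like the rest. Transcripts behind the sort are given here as levels, since the gates chose them. Ly6c1 and Ly6c2 were nevertheless tested among the 9 markers, and Lyz2 and Itgam within a list of 28 genes below. Fth1, whose reporter divided the cells, had 13231, 20999.8 and 20473 CPM in the LPS Fth1-high set, 2969.9 and 4825 in the LPS Fth1-low pair, and 1786 and 1672 in untreated libraries. Lyz2 lay between 6140.2 and 12500.4 CPM in all libraries, Itgam (CD11b) between 750 and 2109, and Ly6g never exceeded 2 counts in a library. In a sorted population, fewer cells that express a gene and less RNA per cell cannot be told apart.

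Markers of other cells also differed between the groups. Markers of nonclassical monocytes, the patrolling Ly6C-low population, summed over 14 genes to 1849 to 1955 CPM in LPS Fth1-high libraries, 4482 to 4942 in LPS Fth1-low libraries and 10382 to 11568 in untreated libraries. Between the LPS gates 10 of the 14 were called lower and 1 higher, where 4.57% of all tested genes were called lower and 3.68% higher, and with each library left out 7 to 10 were lower. The 12 interstitial macrophage markers together had 4714 to 6794 CPM in the LPS Fth1-high set, 837 to 2294 in the LPS Fth1-low libraries and 1998 to 2098 in untreated libraries. Apoe, which carries lipids, made up most of the untreated sums, at 1719 and 1623 CPM. The C1q genes among the 12, which encode a complement component, summed to 966 to 1705 CPM in the LPS Fth1-high set. Their sums were 199 to 542 CPM in the LPS Fth1-low pair and 5.5 to 6.25 in untreated libraries. The list did not move as a whole. Between the LPS gates 5 of the 12 were called higher and 1 lower. For LPS Fth1-high against untreated cells 6 were called higher and 3 lower, where 12.4% of all tested genes were called higher and 11.9% lower. The neutrophil list, 14 genes, summed to 1390 to 2672 CPM in LPS Fth1-high libraries, 586 to 1135 in LPS Fth1-low and 150.1 to 193 in untreated libraries. Cxcl2, a chemokine that monocytes also make, and Lcn2 are among the 14, and the remaining 12 genes summed to 23.8 to 44.9 CPM in the LPS Fth1-high set, 80.4 to 212 in the LPS Fth1-low pair and 82.2 to 92.5 in untreated libraries. Most of these remaining sums was Mmp8, at 13.9 to 36.6, 68.6 to 187 and 71.2 to 78.2 CPM in the same order of groups. Lcn2 had 224 to 955, 70.3 to 139 and 1.77 to 4.25 CPM in that order. Mpo and Elane, enzymes of neutrophil granules, reached at most 3.35 CPM, which is 2 counts in the shallow LPS Fth1-low replicate 1. The 10 lymphocyte markers together reached at most 93.8 CPM. The 10 dendritic cell markers summed to 47.6 to 68.7 CPM in the LPS Fth1-high set, 155 to 181 in the LPS Fth1-low pair and 199 to 217 in untreated libraries, and 3 of them were called lower between the LPS gates. Untreated replicate 1 stood apart in its 8 epithelial markers, which summed to 13.8 to 67.6 CPM in the LPS Fth1-high set, 25.1 and 110 in the LPS Fth1-low pair, and 737 and 5.78 in untreated libraries. Of those 737 CPM, 494 were Sftpc, the surfactant protein C of alveolar epithelium. The part of these other cells in the results below was not tested.

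Ly6c1 and Ly6c2 lie close together on mouse chromosome 15, at chr15:75044018-75048830 and chr15:75108158-75111970 of mm10, both on the minus strand. The sort selected cells by their protein, so the gate bears on their presence and can bear on their level, which was not tested. The coding sequences are 396 bases each and differ at 9 positions. Because Ly6C reads have to be divided between such close copies, the stretch densest in differences is shown, from base 8 to base 65 of the coding sequence of GENCODE vM21, with the 6 bases that differ in capitals.
Ly6c1: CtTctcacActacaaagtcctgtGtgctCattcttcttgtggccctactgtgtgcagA
Ly6c2: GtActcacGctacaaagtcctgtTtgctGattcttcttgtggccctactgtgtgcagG
Elsewhere the coding sequences hold an identical run of 188 bases, longer than the 58-base reads. Of all 58-base words in the protein-coding transcripts, 28.1% of those of Ly6c1 occur in another gene (18.8% in Ly6c2 and 9.24% in Ly6a), and 26.3% of those of Ly6c2 occur in Ly6c1. The split between the genes is therefore uncertain. These shares do not measure by how much, since reads came in pairs and coverage was not weighed.

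Ly6c2 had 1981, 2979.9 and 1854 CPM in LPS Fth1-high libraries, 1393 and 847 CPM in LPS Fth1-low libraries, with 562 and 765 CPM in untreated libraries. The groups did not overlap, and the order ran from LPS Fth1-high down to untreated. Between the LPS gates the log2 difference of 1.03 ± 0.32 was not called (edgeR adjusted p = 0.093). By the DESeq2 Wald test it passed (0.98, adjusted p = 0.01), and without LPS Fth1-low replicate 1 it was 1.4 (edgeR adjusted p = 0.077). LPS Fth1-high cells exceeded untreated cells by 1.78 ± 0.33 (edgeR adjusted p = 0.0039), and that call was lost without untreated replicate 1 (1.53, adjusted p = 0.054). LPS Fth1-low cells differed from untreated cells by 0.75 ± 0.34, which was not called (adjusted p = 0.39).

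Ly6c1 was the scarcer copy, with 115, 262 and 168 CPM in the LPS Fth1-high set, 127 and 53 CPM in the LPS Fth1-low pair, and 44.7 and 39.2 CPM in untreated libraries. LPS Fth1-high replicate 1 lay below LPS Fth1-low replicate 1, so the LPS groups overlapped, while all LPS libraries lay above both untreated ones. The difference between the LPS gates was 1.12 ± 0.44 (edgeR adjusted p = 0.17). It was 1.75 without LPS Fth1-low replicate 1 (adjusted p = 0.078), 0.52 without replicate 2 of that group (0.54) and 0.72 without LPS Fth1-high replicate 2 (0.44). Against untreated cells, LPS Fth1-high cells were higher by 2.11 ± 0.43 (adjusted p = 0.0067), a call lost without untreated replicate 2 (1.75, adjusted p = 0.058), and LPS Fth1-low cells differed by 0.99 ± 0.47 (adjusted p = 0.41). In counts, Ly6c2 outnumbered Ly6c1 by 11.1 to 17.3 times in the LPS Fth1-high set, 10.9 and 16 times in the LPS Fth1-low pair and 12.6 and 19.5 times in untreated libraries. The ratios overlapped between the groups.

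The Ly6 family around them was uneven. Of its 9 tested genes, Ly6i alone was called between the LPS gates, in the direction in which 3.68% of all tested genes were called. Ly6i had 1081, 1066 and 995 CPM in the LPS Fth1-high set, 203 and 291 in the LPS Fth1-low pair, and 44 and 54.6 in untreated libraries. It was higher by 2.07 ± 0.24 in LPS Fth1-high than in LPS Fth1-low cells (adjusted p = 0.0011), and by 2.34 ± 0.26 in LPS Fth1-low than in untreated cells (adjusted p = 0.00098). Without LPS Fth1-low replicate 1 these values were 1.82 and 2.59, and both calls held. Ly6a, the stem cell antigen Sca-1 that is also found on endothelium, had 762, 502 and 470.4 CPM in the LPS Fth1-high set, 338 and 235 in the LPS Fth1-low pair, and 37.5 and 17.6 in untreated libraries. Its difference was called for LPS Fth1-low against untreated cells (3.35 ± 0.42, adjusted p = 0.0019) and not between the LPS gates (1.03 ± 0.36, adjusted p = 0.13). The other endothelial markers, 8 genes, summed to 48.2 to 218 CPM in LPS Fth1-high libraries, 156 to 283 in LPS Fth1-low and 154 to 405 in untreated libraries. Their part in the Ly6a values was not tested. Ly6e, a family member expressed in many cell types, lay between 1965 and 2559 CPM in all libraries, and its differences of -0.02 between the LPS gates, -0.15 between the Fth1-low groups and -0.17 between LPS Fth1-high and untreated cells were not called.

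**Figure D1:**
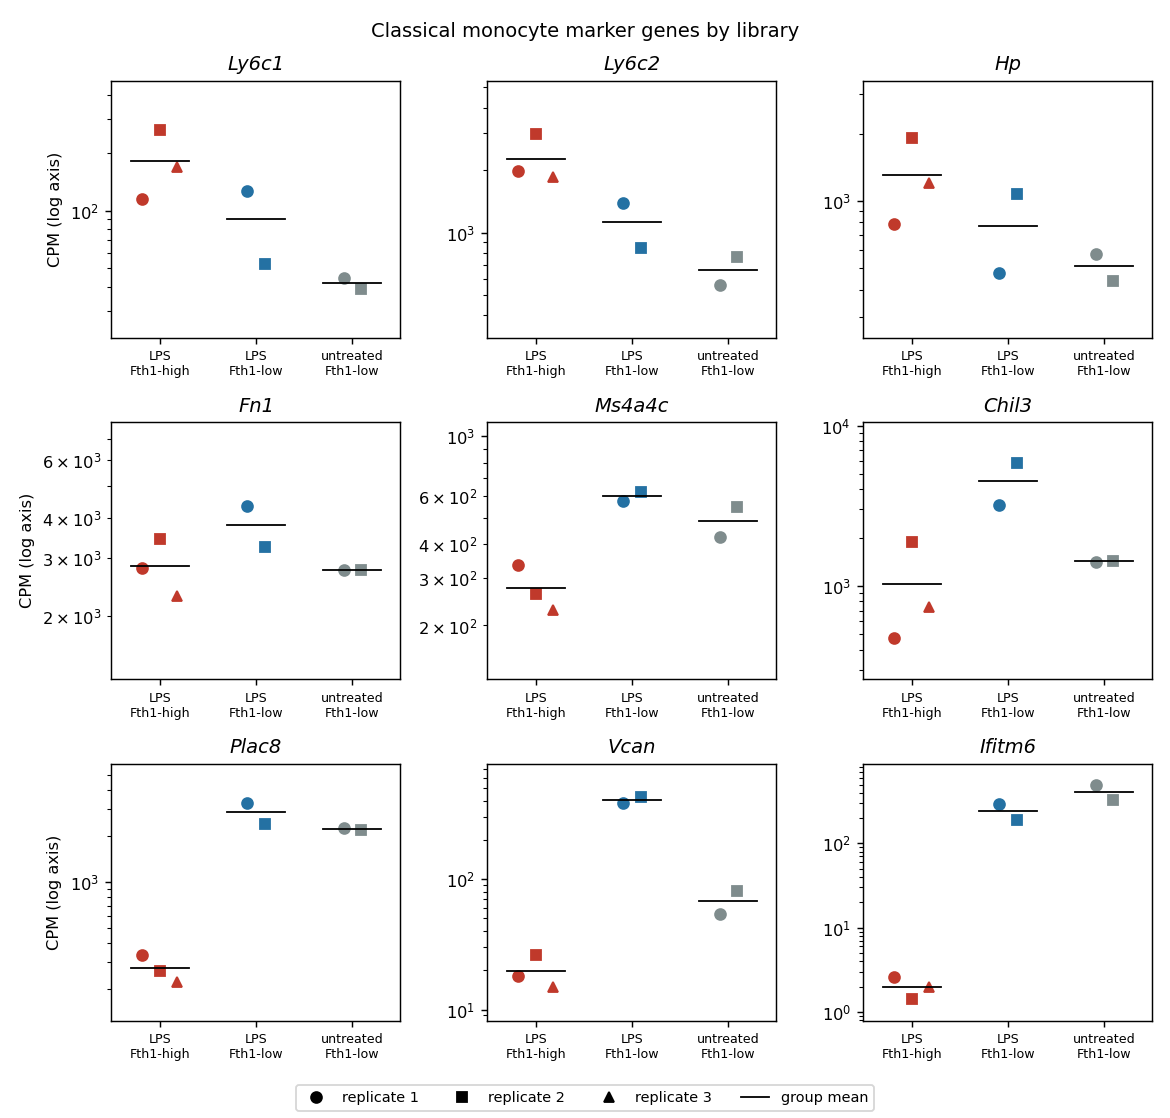
CPM (counts scaled to library size, log axis) of the 9 marker genes in each library. Red, blue and grey mark LPS Fth1-high, LPS Fth1-low and untreated Fth1-low libraries, symbols mark the replicate number and bars the group mean. The LPS Fth1-high libraries lie highest for Ly6c2 and lowest for Ms4a4c, Plac8, Vcan and Ifitm6, where they do not overlap either other group.

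Ifitm6 belongs to the interferon-induced transmembrane genes, whose small proteins are best known for blocking virus entry. It lies at chr7:141015699-141017924 (mm10, minus strand). It had 2.59, 1.42 and 1.98 CPM in LPS Fth1-high libraries, 295 and 189 CPM in LPS Fth1-low libraries, with 488 and 327 CPM in untreated libraries. The raw counts behind the first group were 39, 35 and 56, so the transcript was detected in every LPS Fth1-high library. Even in the shallow LPS Fth1-low replicate 1 it had 176 counts. LPS Fth1-high libraries were thus lowest by a wide margin, and LPS Fth1-low libraries lay below the untreated ones without overlap. The log2 difference between the LPS gates was -6.92 ± 0.35 (adjusted p = 5.6e-05), the smallest p of all genes tested and the 3rd largest fall. Against untreated cells LPS Fth1-high cells were 207-fold lower (-7.69 ± 0.36, adjusted p = 3.4e-06), and the difference between the Fth1-low groups was -0.78 ± 0.32 (adjusted p = 0.33). Leaving out any single library kept the difference between the LPS gates within -7.22 to -6.61. The difference without LPS Fth1-low replicate 1 was -6.61.

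Ifitm6 was not alone in its family. Of 6 tested Ifitm genes, 5 fell in LPS Fth1-high relative to LPS Fth1-low cells, where 4.57% of all tested genes were called lower. Ifitm3, the best studied antiviral member, had 509.6, 383 and 403 CPM in the LPS Fth1-high set, 1813 and 1002 in the LPS Fth1-low pair, and 1612 and 1509 in untreated libraries (-1.7 ± 0.28 between the LPS gates, adjusted p = 0.0059, and -1.24 without LPS Fth1-low replicate 1, adjusted p = 0.021). Ifitm2 had a difference of -2.31 ± 0.27 (adjusted p = 0.0011), Ifitm1 of -1.92 ± 0.37 (0.012) and Ifitm5 of -3.74 ± 0.69 (0.01), although Ifitm5 rested on at most 8 counts per LPS Fth1-high library and the Ifitm1 call was lost without either LPS Fth1-low library. Ifitm7 reached 57 counts at most and was not called (0.39 ± 1.53). The fall of Ifitm6 was the largest among the 6 on the log2 scale. Ifitm3 had 197, 269 and 204 counts for each count of Ifitm6 in LPS Fth1-high libraries, 6.15 and 5.3 in LPS Fth1-low, and 3.31 and 4.61 in untreated libraries. No 58-base word of the Ifitm6 transcripts occurs in another protein-coding gene, so reads of its relatives cannot be taken for it on exact match.

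Vcan encodes versican, a large chondroitin sulphate proteoglycan of the extracellular matrix that monocytes make in quantity. The gene lies at chr13:89655312-89742509 (mm10, minus strand). It had 18, 26.1 and 14.8 CPM in LPS Fth1-high libraries, 387 and 426 CPM in LPS Fth1-low libraries, with 54.2 and 81 CPM in untreated libraries. The groups fell into separate ranges with LPS Fth1-low highest, untreated between and LPS Fth1-high lowest. LPS Fth1-high cells were 20.7-fold lower than LPS Fth1-low cells (-4.37 ± 0.29, adjusted p = 9.5e-05) and 3.43-fold lower than untreated cells (-1.78 ± 0.27, adjusted p = 0.0013). LPS Fth1-low cells were 6.03-fold higher than untreated cells (2.59 ± 0.32, adjusted p = 0.0018). Without LPS Fth1-low replicate 1 the differences that involve its group were -4.46 (adjusted p = 0.0017) and 2.69 (adjusted p = 0.011). The pseudogene Gm16318 and the antisense gene Gm4117 overlap Vcan on the other strand. The kit keeps strand, but the strand counted is not given in the sources used here.

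Plac8, which encodes a cysteine-rich protein of myeloid and lymphoid cells, lies at chr5:100553725-100572245 (mm10, minus strand). It had 336, 263 and 224 CPM in LPS Fth1-high libraries, 3279.6 and 2408 CPM in LPS Fth1-low libraries, with 2266 and 2192 CPM in untreated libraries. All Fth1-low libraries, treated or not, lay well above the LPS Fth1-high ones. LPS Fth1-high cells were 10.4-fold lower than LPS Fth1-low cells (-3.37 ± 0.26, adjusted p = 0.00018) and 8.12-fold lower than untreated cells (-3.02 ± 0.26, adjusted p = 4.1e-05). The Fth1-low groups differed by 0.35 ± 0.28 (adjusted p = 0.68). With LPS Fth1-low replicate 1 left out the difference between the LPS gates was -3.16 (adjusted p = 0.0017).

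Ifitm6, Vcan and Plac8 fell together in LPS Fth1-high cells, and their promoters are shown for that reason, from 250 bases before to 50 after the start in RefSeq (GRCm38.p6). Promoters were matched for 7 of the 9 genes, all but Fn1 and Hp. Each is read 5′ to 3′ on the minus strand, at chr7:141016843-141017142 for Ifitm6, chr13:89742463-89742762 for Vcan and chr5:100572156-100572455 for the first of the Plac8 starts. The Ifitm6 window lies wholly inside the gene span given above, so its RefSeq start is downstream of the outermost GENCODE start. The Vcan and Plac8 windows cross the upstream ends of their genes. Capitals mark matches, on either strand, to AGGAAGT (bound by ETS factors such as PU.1), TTNNGNAA (C/EBP), TGANTCA (AP-1) or TATAAA, where N is any base.
Ifitm6: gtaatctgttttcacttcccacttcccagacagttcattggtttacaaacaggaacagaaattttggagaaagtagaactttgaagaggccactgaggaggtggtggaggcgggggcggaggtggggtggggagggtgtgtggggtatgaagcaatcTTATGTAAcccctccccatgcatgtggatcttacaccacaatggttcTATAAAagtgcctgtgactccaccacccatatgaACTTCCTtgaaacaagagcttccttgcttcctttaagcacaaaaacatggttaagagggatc
Vcan: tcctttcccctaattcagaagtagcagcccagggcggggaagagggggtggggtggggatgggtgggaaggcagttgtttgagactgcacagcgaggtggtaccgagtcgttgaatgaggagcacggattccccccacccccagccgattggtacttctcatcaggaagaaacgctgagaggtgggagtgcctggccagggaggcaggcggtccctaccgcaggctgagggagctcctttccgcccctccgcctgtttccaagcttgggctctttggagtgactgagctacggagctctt
Plac8: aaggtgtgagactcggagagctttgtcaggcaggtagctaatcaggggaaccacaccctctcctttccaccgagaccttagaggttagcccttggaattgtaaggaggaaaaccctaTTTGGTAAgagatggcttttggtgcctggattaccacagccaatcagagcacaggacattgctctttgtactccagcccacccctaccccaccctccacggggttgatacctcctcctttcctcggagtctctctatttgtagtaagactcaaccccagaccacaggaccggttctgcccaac
The Ifitm6 window held 1 match each to AGGAAGT, TTNNGNAA and TATAAA, the Plac8 window 1 match to TTNNGNAA and the Vcan window none, so no motif searched was common to the 3. Of 32851 promoters of this length, 9.35% held AGGAAGT, 40.7% TTNNGNAA, 7.81% TGANTCA and 13.6% TATAAA. A match describes the letters only.

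Chil3 encodes a secreted chitinase-like protein without chitinase activity that classical monocytes and alveolar macrophages make in mice (chr3:106147554-106167564 in mm10, minus strand). It had 471, 1877 and 741 CPM in LPS Fth1-high libraries, 3189 and 5805 CPM in LPS Fth1-low libraries, with 1409.7 and 1427 CPM in untreated libraries. LPS Fth1-low libraries were highest. LPS Fth1-high replicate 2 lay 3.99 times above replicate 1 and above the untreated libraries, so those groups overlapped. The difference between the LPS gates was -2.13 ± 0.52 (adjusted p = 0.04). The call was lost in 5 of the 7 fits that left out 1 library, among them the fit without LPS Fth1-low replicate 1 (-2.52, adjusted p = 0.07) and that without replicate 2 of the same group (-1.62, adjusted p = 0.18). It was also lost without LPS Fth1-high replicate 3 (adjusted p = 0.13), untreated replicate 1 (0.061) and untreated replicate 2 (0.063). Neither the difference between the Fth1-low groups (1.67 ± 0.59, adjusted p = 0.24) nor that between LPS Fth1-high and untreated cells (-0.46 ± 0.52, adjusted p = 0.57) was called, and the first was called in a fit of only those 2 groups (adjusted p = 0.0074). Without LPS Fth1-high replicate 2, Chil3 was called lower in LPS Fth1-high than in untreated cells (-1.22, adjusted p = 0.046), and in that fit its difference between the Fth1-low groups was called as well (adjusted p = 0.036).

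Chil4, a close copy of Chil3 also called Ym2, had the pattern nearest to that of Chil3 among the 8056 genes that averaged 10 CPM or more. Its level was 5.24, 18.5 and 7.71 CPM in the LPS Fth1-high set, 51.9 and 64.1 in the LPS Fth1-low pair, and 14.6 and 16.3 in untreated libraries, and the difference between the LPS gates was -2.49 ± 0.46 (adjusted p = 0.012, and 0.11 without LPS Fth1-low replicate 2). Chil3 had 61.5 to 102 counts for each count of Chil4 across the 7 libraries. Of the 58-base words of Chil3, 23.7% occur in another gene, with 14.1% in Chil4 and 11.2% in Gm6522. The part of shared reads in the Chil4 values was not tested. The other 3 of the 5 tested chitinase-like genes were not called in any comparison. Chid1, a lysosomal relative, had a difference of -0.39 ± 0.22 between the LPS gates (adjusted p = 0.35).

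Ms4a4c, at chr19:11404770-11427246 (mm10, plus strand), encodes a membrane protein of a family grouped on that chromosome. It had 334, 262 and 228 CPM in LPS Fth1-high libraries, 576 and 625 CPM in LPS Fth1-low libraries, with 424 and 549 CPM in untreated libraries. Each LPS Fth1-high library was below every other library. The difference was -1.13 ± 0.23 between the LPS gates (adjusted p = 0.015) and -0.83 ± 0.23 against untreated cells (adjusted p = 0.026), and 0.31 ± 0.25 between the Fth1-low groups (adjusted p = 0.7). The first call did not survive leaving out LPS Fth1-low replicate 2 (adjusted p = 0.064), nor replicate 2 (0.058) or replicate 3 (0.072) of the LPS Fth1-high group, and held without LPS Fth1-low replicate 1 (-1.21, 0.039). The second was lost without LPS Fth1-high replicate 2 (0.093) or 3 (0.11) and without untreated replicate 1 (0.052) or 2 (0.22).

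The Ms4a family moved in both directions. Of 11 tested genes, Ms4a4c, Ms4a4b and Ms4a6b fell between the LPS gates and Ms4a7, which is found on macrophages, rose. Of all tested genes, 4.57% were called lower there and 3.68% higher. Leaving out LPS Fth1-low replicate 2 ended the Ms4a6b call (adjusted p = 0.058). Ms4a7 had 86.2, 98.4 and 168 CPM in the LPS Fth1-high set, 3.35 and 22.8 in the LPS Fth1-low pair, and 7.41 and 11.2 in untreated libraries (2.71 ± 0.51 between the LPS gates, adjusted p = 0.012, the 3.35 CPM being 2 counts). Ms4a6c, the most abundant member in the counts, had 649, 790.1 and 579.8 CPM in the LPS Fth1-high set, 740 and 985 in the LPS Fth1-low pair, and 898 and 1049 in untreated libraries, and was not called (-0.36 ± 0.23 between the LPS gates, adjusted p = 0.42). Ms4a6d was called higher in LPS Fth1-low than in untreated cells (1.78 ± 0.31, adjusted p = 0.012), a call lost with untreated replicate 1 or LPS Fth1-low replicate 2 left out.

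**Figure D2:**
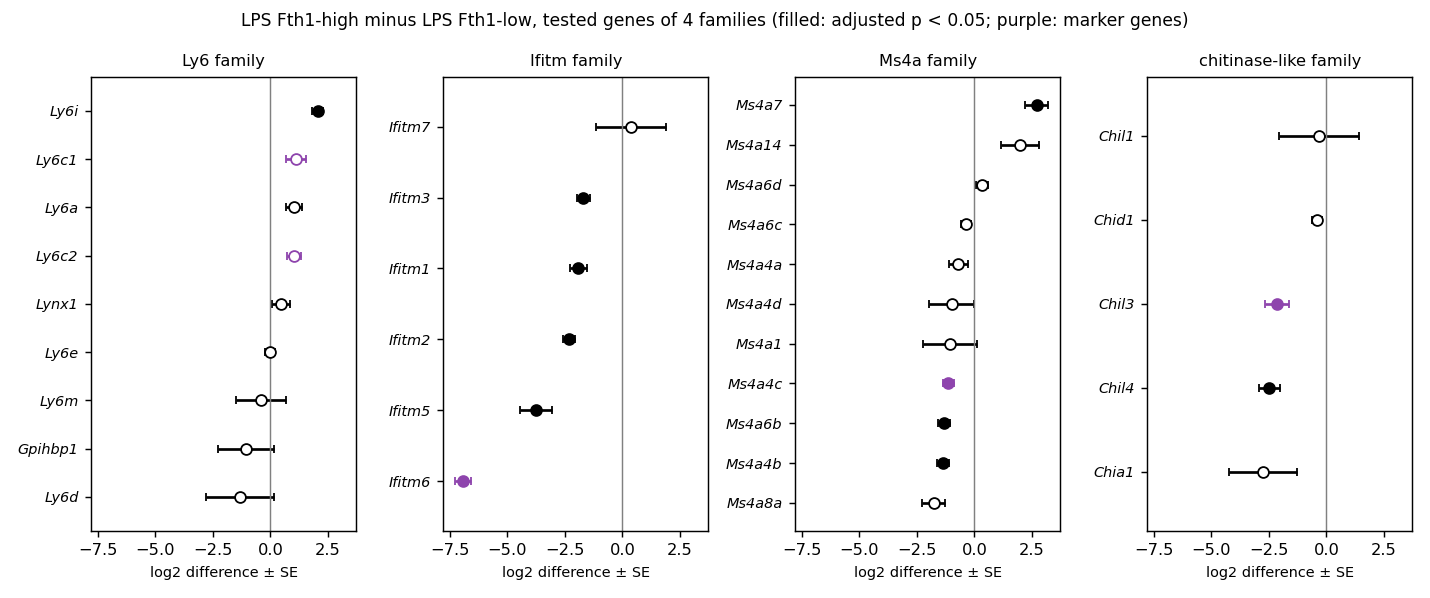
Log2 difference ± SE of LPS Fth1-high minus LPS Fth1-low cells for the tested genes of the Ly6, Ifitm, Ms4a and chitinase-like families. Filled points have an adjusted p below 0.05 and purple marks the classical monocyte marker genes. Filled points of the Ifitm family all lie left of 0, from -1.7 for Ifitm3 to -6.92 for Ifitm6, and those of the Ms4a family lie on both sides.

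Fn1 encodes fibronectin, an adhesive glycoprotein of the matrix (chr1:71585520-71653200 in mm10, minus strand). It had 2809, 3439.9 and 2296 CPM in LPS Fth1-high libraries, 4359 and 3244 CPM in LPS Fth1-low libraries, with 2753 and 2758 CPM in untreated libraries. LPS Fth1-high libraries overlapped both other groups, and both LPS Fth1-low libraries lay above the untreated ones. Its differences were -0.42 ± 0.26 between the LPS gates (adjusted p = 0.41), 0.46 ± 0.29 between the Fth1-low groups (0.57) and 0.05 ± 0.26 between LPS Fth1-high and untreated cells (0.92). The first was -0.21 without LPS Fth1-low replicate 1, and the last turned to -0.11 without LPS Fth1-high replicate 2. An antisense gene, Apol7d, overlaps Fn1 and shares 2.21% of its 58-base words.

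Hp encodes haptoglobin, which binds free haemoglobin in plasma and is made by liver and by myeloid cells (chr8:109575128-109579172 in mm10, minus strand). It had 787, 1915 and 1198 CPM in LPS Fth1-high libraries, 477 and 1073 CPM in LPS Fth1-low libraries, with 579.9 and 438 CPM in untreated libraries. LPS Fth1-high libraries all lay above the untreated ones, and LPS Fth1-low libraries spanned both. The difference between LPS Fth1-high and untreated cells, 1.35 ± 0.44, just missed the threshold (edgeR adjusted p = 0.052) and passed it with RLE scaling (0.048), in a fit of only those 2 groups (0.037) and by the DESeq2 Wald test (0.0015). It also passed without LPS Fth1-high replicate 1 (0.021), LPS Fth1-low replicate 1 (0.035) or LPS Fth1-low replicate 2 (0.038). Between the LPS gates it was 0.73 ± 0.43 (adjusted p = 0.38) and between the Fth1-low groups 0.62 ± 0.46 (adjusted p = 0.66). Without LPS Fth1-low replicate 1 those values were 0.25 and 1.11, and without replicate 2 of that group they were 1.46 and -0.11.

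Partners of these secreted proteins were looked at as a list of 16 genes, 13 of them tested. Between the LPS gates Hmox1, which degrades haem, was higher, and the integrin chains Itga4 and Itgb3 were lower. Over all tested genes 3.68% were called higher there and 4.57% lower. Hmox1 had 444, 619 and 596 CPM in the LPS Fth1-high set, 98.8 and 127 in the LPS Fth1-low pair, and 116 and 118 in untreated libraries (2.27 ± 0.24 between the LPS gates, adjusted p = 0.0007, and 2.1 without LPS Fth1-low replicate 1). Itga4, which pairs with Itgb1 to bind fibronectin, had 444, 378 and 315 CPM in the LPS Fth1-high set, 1013 and 856 in the LPS Fth1-low pair, and 941 and 1345 in untreated libraries (-1.3 ± 0.24 between the LPS gates, adjusted p = 0.011, and 0.053 without LPS Fth1-high replicate 3). Itgb3 differed by -3.56 ± 0.71 (adjusted p = 0.02), with at most 4.18 CPM in an LPS Fth1-high library, and its call was lost without LPS Fth1-high replicate 3 or either LPS Fth1-low library (adjusted p up to 0.085). Itga5, the other main fibronectin receptor chain, was not called between the LPS gates (-0.03 ± 0.29, adjusted p = 0.98) and was higher in LPS Fth1-low than in untreated cells (2.05 ± 0.34, adjusted p = 0.0092, and 0.11 without untreated replicate 1). Cd163, the receptor for haptoglobin bound to haemoglobin, had at most 6 counts in an LPS Fth1-high library and 113 and 70 in the untreated ones, and the difference of these groups was -4.94 ± 0.64 (adjusted p = 0.00046). Cd44, a receptor of hyaluronan, which versican binds, was not called between the LPS gates (-0.23 ± 0.29, adjusted p = 0.7).

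Counted over the 9 markers, 5 were lower and 0 higher in LPS Fth1-high than in LPS Fth1-low cells, where 8.25% of all tested genes were called (4.57% lower and 3.68% higher). At an unadjusted p below 0.05 edgeR had 2 markers higher, Ly6c1 (0.03) and Ly6c2 (0.011), and the DESeq2 Wald test called 1 higher, Ly6c2. By edgeR's p, Ly6c1 ranked 2386 and Ly6c2 1561 among the 13665 genes tested, counting both directions. At least 2386 of the 13665 genes thus passed that unadjusted threshold in either direction, and their exact share was not counted. The median difference of the 9 was -1.13, against 0.04 for all tested genes. The libraries of the groups did not overlap for 6 of the 9, against 41.3% of tested genes. In LPS Fth1-low against untreated cells 1 marker was higher and 0 lower, where 3.62% of tested genes were called (2.99% higher and 0.629% lower), and the median was 0.62, against -0.05. Besides Vcan, Chil3 was higher there at an unadjusted p of 0.021 by edgeR, and Ifitm6 was lower at 0.038. By that p Chil3 ranked 1176 and Ifitm6 1573 among the 13665 genes, counting both directions. DESeq2 and limma-voom called 0 markers lower in that comparison. There 8 of the 9 did not overlap, against 39.5% of tested genes. For LPS Fth1-high against untreated cells, which differ in both treatment and gate, 2 markers were higher and 4 lower, where 24.3% of tested genes were called (12.4% higher and 11.9% lower), and the median was -0.46, against 0.03. Here 7 of the 9 did not overlap, against 58.1% of tested genes. The 3 comparisons share their groups, so the same libraries enter more than 1 count.

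**Figure D3:**
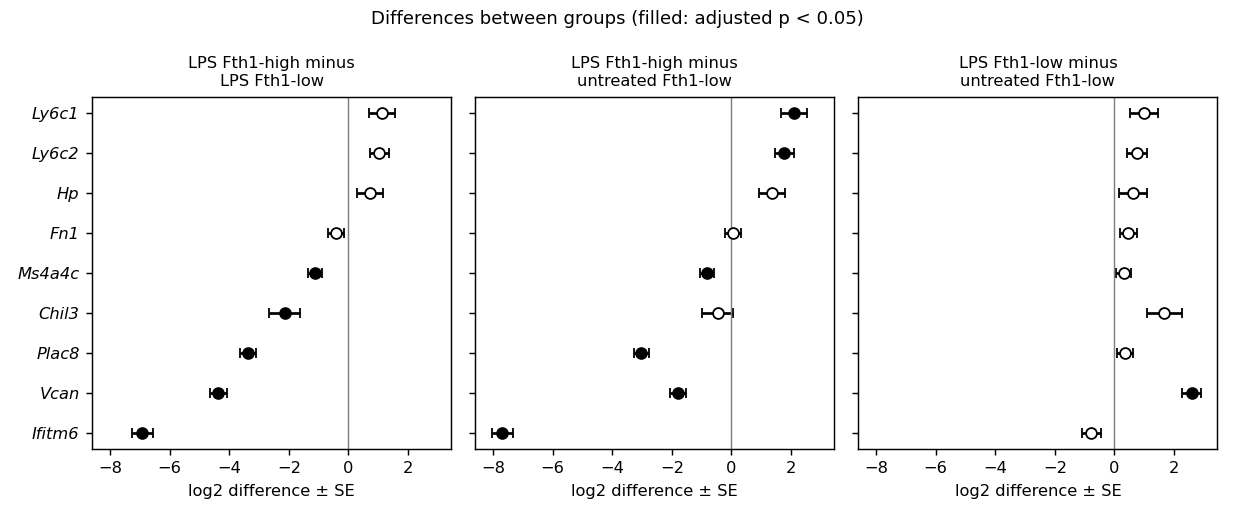
Log2 difference ± SE of the 9 marker genes in the 3 comparisons. Filled points have an adjusted p below 0.05. In the left panel the points run from 1.12 for Ly6c1 to -6.92 for Ifitm6, and in the right panel Vcan at 2.59 is the only filled point.

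A further list of 28 genes linked to classical monocytes was tested beside the 9. It includes Lyz2 and Itgam, which lie behind the sort. Between the LPS gates 10 fell, 1 rose and 17 were not called, where 4.57% of all tested genes fell and 3.68% rose. The median difference of the 28 was -0.46, against 0.04 for all tested genes. The falls with the smallest adjusted p included those of Cd177, an antigen of neutrophil and monocyte surfaces (-4.94 ± 0.33, 9.5e-05), and F5, coagulation factor V (-6.48 ± 0.45, 0.00012). The 1 rise was Clec4d, a C-type lectin that senses microbes, with 402, 730.2 and 664 CPM in the LPS Fth1-high set, 93.8 and 145 in the LPS Fth1-low pair, and 40.4 and 44.6 in untreated libraries (2.29 ± 0.32 between the LPS gates, adjusted p = 0.0027, and 2.03 without LPS Fth1-low replicate 1). Ccr2, the chemokine receptor of these cells and outside the naming rule, was chosen after its value was seen (-2.44 ± 0.39, adjusted p = 0.0057, and 0.05 without LPS Fth1-low replicate 2). Between LPS Fth1-low and untreated cells 3 of the 28 rose, where 2.99% of all tested genes did. Those rises numbered 0 without untreated replicate 2, 1 with either LPS Fth1-low replicate 2 or untreated replicate 1 left out, and 2 to 4 in the other fits with 1 library left out. For LPS Fth1-high against untreated cells 6 rose and 10 fell, where 12.4% of all tested genes rose and 11.9% fell, and with 1 library left out 4 to 7 rose and 8 to 11 fell. With each library left out, the falls between the LPS gates numbered 7 to 10 and the rises 1 or 2.

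Some genes outside the list shared a marker's pattern. Likeness was the root mean square difference of log2 CPM over the 7 libraries after each gene was centred on its own mean. Ifitm6 was nearest to F5 (0.9), Cd177 (0.95) and Rgs18 (1). Chil3 was nearest to Chil4 (0.22), Ms4a8a (0.44) and S100a9 (0.54), and Vcan to Chil4 (0.82), Lifr (0.83) and Il1r2 (0.9), so no gene followed Vcan closely. Plac8 was nearest to Pram1 (0.31), Plcb1 (0.36) and Lifr (0.37). Ms4a4c had Themis2, Ifi204 and Samhd1, all at 0.13, as nearest genes. Ly6c2 was nearest to Iqsec1, Eea1 (both 0.21) and Slc36a1 (0.22), Ly6c1 to Aopep, Rnf157 (both 0.33) and Tspan4 (0.36), Fn1 to Ckap4 (0.1), Dcun1d3 (0.11) and Pik3r6 (0.12), and Hp to Dpep2 (0.17), Tes (0.21) and Slc44a1 (0.22). Genes that hardly vary are close to many others, so small values for Fn1 carry less than those for Chil3. Within the 9 the nearest pair was Ly6c1 and Ly6c2 (0.32), followed by Ms4a4c and Fn1 (0.47) and Ly6c2 and Hp (0.63), and the farthest was Ly6c1 and Ifitm6 (4.42).

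Levels can be set beside each other only per length of transcript, here CPM per kilobase of the longest principal transcript. Vcan is left out, since its coding transcripts range from 294 to 12427 bases. Ly6c2 was the most abundant marker in LPS Fth1-high cells at 2764 ± 750.2 CPM per kilobase (SD, n = 3), followed by Hp at 967 ± 424 and Chil3 at 669 ± 485, whose ranges overlap. Ifitm6 was the least abundant there at 2.94 ± 0.863 CPM per kilobase. In LPS Fth1-low cells Chil3 led at 2922 ± 1202 CPM per kilobase (n = 2), with Plac8 at 2323 ± 504 and Ly6c2 at 1363 ± 469.7. In untreated cells Plac8 led at 1821 ± 42.7 CPM per kilobase (n = 2), with Chil3 at 922 ± 7.95 and Ly6c2 at 807 ± 175. The 9 markers together took 6725 to 11025 CPM in the LPS Fth1-high set, 14083 and 14671 in the LPS Fth1-low pair, and 8582 and 8577 in untreated libraries. This sum, not divided by length, was highest in LPS Fth1-low cells without overlap. Chil3 alone gave 3189 and 5805 CPM of it in the LPS Fth1-low pair. It gave 471, 1877 and 741 CPM in the LPS Fth1-high set, and 1409.7 and 1427 in untreated libraries. With Chil3 left out of the sums, LPS Fth1-high replicate 2 lay above LPS Fth1-low replicate 2, so these groups then overlapped.

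The results for single libraries can be read from the plot of differences with each library left out. Ifitm6, Vcan and Plac8 kept their call between the LPS gates in all 7 fits. Vcan ranged from -4.66 to -4.2, and Plac8 from -3.57 to -3.16. For LPS Fth1-high against untreated cells the 3 genes kept their calls too, within -7.94 to -7.38 for Ifitm6, -2.04 to -1.45 for Vcan and -3.19 to -2.9 for Plac8. Vcan stayed called for LPS Fth1-low against untreated cells, within 2.32 to 2.93.

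**Figure D4:**
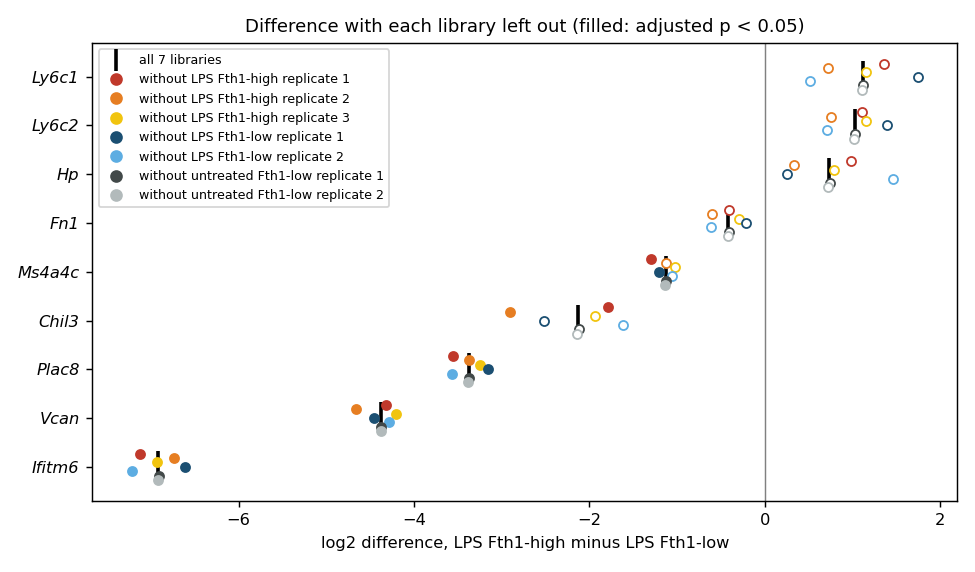
Log2 difference of LPS Fth1-high minus LPS Fth1-low cells for each marker gene with all 7 libraries (black bars) and with each library left out (coloured points, filled where the adjusted p is below 0.05). Points of Ifitm6, Vcan and Plac8 are filled throughout, while Chil3 is filled in 2 of 7 fits and Ms4a4c in 4 of 7.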

How the data were processed

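Polyadenylated RNA, 25 ng per library, was made into stranded libraries with 15 PCR cycles and read as pairs of 58 bp, per the labels' protocols. The authors deposited whole-number counts per gene and library, and the submitters' processing notes name DRAGEN, DESeq2 and mm10. Versions, annotation, counted strand and filters are not given in the labels or files used here. The table listed 26130 genes, 6880 of them without a count in these libraries, and held 0 sample columns that went unused.

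From the counts, in R 4.3.3 with edgeR 4.0.16, genes passing filterByExpr (13665) were scaled by TMM and fitted with 1 robust quasi-likelihood model of the 3 groups (residual df 4). Tests were two-sided, with Benjamini-Hochberg adjusted p over all genes tested, and SE is the log2 difference over the square root of F. Alternatives were RLE scaling, no filter, DESeq2 1.42.0, limma-voom (limma 3.58.1), fits of 2 groups, ribosomal RNA genes left out, a replicate block and each library left out. Leaving out a library for the other gene lists was added after seeing the data. Tested on simulated data over 13665 genes, the procedure recovered 35%, 25% and 40% of changes of log2 1 and 91%, 87% and 93% of changes of log2 2 between the LPS gates, between the Fth1-low groups and between LPS Fth1-high and untreated cells, in that order, and 4.55%, 5.08% and 4.32% of its calls were unchanged genes. The simulation changed 100 genes per size, none of them scarce, and took each gene's spread from the trend with abundance. It gave LPS Fth1-low replicate 1 no extra spread, so these rates need not hold for the real libraries.

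The marker genes and lists were chosen with earlier results of these data known. Named were the 9 markers, every tested gene of their families, up to 4 genes of another list by smallest adjusted p between the LPS gates or its 2 most abundant where none was called, and the 3 genes most like each marker. A gene that this rule names is not reported here. Ccr2, Itga5, Cd163, Cd44, Fth1, Apoe, Sftpc, Lyz2, Itgam, Mpo, Elane and the genes of the trimmed marker sums were added after their values were seen. Positions are of GENCODE vM21 (mm10), 1-based. Promoters are from RefSeq (GRCm38.p6). Exact 58-base words of the markers' protein-coding transcripts were sought in the transcripts of all other genes, on both strands and without mismatches.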

Additional observations from a re-analysis of the deposited data

How the results depend on the processing

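Of 378 values of the 9 markers under alternatives, 346 kept their direction and their side of the threshold, 13 passed it, 17 no longer passed it and 2 reversed. Vcan, Plac8 and Ifitm6 kept every call. The reversals were Hp between LPS Fth1-low and untreated cells without LPS Fth1-low replicate 2 (-0.11, in a range up to 1.11 without replicate 1) and Fn1 between LPS Fth1-high and untreated cells without LPS Fth1-high replicate 2 (-0.11, in a range up to 0.18 without replicate 3). With 1 library left out, genes called numbered 658 to 1061 of 13665 tested between the LPS gates, where 1128 were called with all libraries, and markers called 3 to 5. They numbered 197 to 531 for LPS Fth1-low against untreated cells (495 with all libraries), with 1 to 2 markers, and 1918 to 4143 for LPS Fth1-high against untreated cells (3315 with all), with 4 to 7 markers. DESeq2 called 822 genes for LPS Fth1-low against untreated cells, and a fit of only those 2 groups called 2 markers. The Chil3 call between the LPS gates was also lost with no filter on low counts (adjusted p = 0.1) and in a fit of only the 2 groups (0.058). Without LPS Fth1-low replicate 2 the median of all genes moved to 0.28 between the LPS gates and to -0.27 between the Fth1-low groups, and 64.3% of calls between the LPS gates were higher, against 44.6% with all libraries. The cause of these shifts was not tested. Fits without an LPS Fth1-low or untreated library leave 1 library in that group. Each fit with a library left out repeated the filter on low counts. The genes tested could therefore differ, and 13665 is their number with all libraries.

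Deviations of libraries with the same replicate number correlated at -0.04 to 0.29, and only some pairs passed 0.1. In a group of 2 libraries the deviations mirror each other, so both replicate numbers gave -0.04 between the Fth1-low groups. Such correlations cannot settle whether libraries shared mice, and the numbers were not taken to pair the libraries. With the replicate number as a block, 1328, 741 and 3119 genes and 6, 2 and 6 markers were called between the LPS gates, between the Fth1-low groups and between LPS Fth1-high and untreated cells, in that order. Ly6c2 passed between the LPS gates (1.13, adjusted p = 0.023), Chil3 between the Fth1-low groups (0.0035) and Hp between LPS Fth1-high and untreated cells (0.0075), and Ms4a4c did not in that last comparison (0.1). Depth limits LPS Fth1-low replicate 1, where 1 count is 1.67 CPM.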
